A study of Mus musculus with 2 samples.

Results

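The Mir322-Mir503 cluster is a group of 7 microRNA (miRNA) genes on the mouse X chromosome: Mir322, Mir503, Mir351, Mir542, Mir450-2, Mir450-1 and Mir450b. Its levels were described in skeletal muscle of newborn mice. The members were chosen by name, through the GENCODE gene identifiers, and all 7 were found among the 1973 miRNA genes listed in each count table. The libraries were small RNA libraries from total RNA, size range under 30 as labelled, of 1 skeletal muscle from each of 2 pups of the B6NCrl strain at postnatal day 0. Pup 1 gave replicate 1 and pup 2 gave replicate 2. Both pups carry the same number for the pregnant female, their sex was not collected, and the labels do not say which muscle was taken. The labels name no genotype, agent or second condition, so the data hold 1 group and no contrast between conditions.

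Polycistronic miRNAs are cut as separate hairpins from a shared primary transcript, first by Drosha in the nucleus and then by Dicer in the cytoplasm. One arm of each hairpin, the guide, is loaded into an Argonaute protein, and bases 2 to 8 of the guide, the seed, pair with target mRNAs. This cluster is known for its induction when myoblasts differentiate. miR-322 and miR-503 are known to lower Cdc25a, a phosphatase that activates the kinase Cdk2, and so to favour exit from the cell cycle. The tables held counts of miRNA genes only, with no measure of the cell cycle or of target mRNAs.

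The RefSeq mature sequences (build GRCm38.p6) are shown because the seeds set which members resemble each other and which resemble miRNAs made elsewhere. Capitals mark the seed, and each sequence reads 5′ to 3′. All 7 members were matched. The first 2 share bases 2 to 7.
miR-322-5p: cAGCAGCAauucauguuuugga
miR-503-5p: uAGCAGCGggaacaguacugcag
Counting from 1 at the 5′ end of miR-322-5p, the seeds differ by A8G. Over the 22 positions compared, 11 were identical.

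The next sequences come from Mir351 and Mir542, and no other member carries their seeds.
miR-351-5p: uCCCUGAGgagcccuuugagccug
miR-542-5p: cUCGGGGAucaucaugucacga
miR-542-3p: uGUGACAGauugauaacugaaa
The last group comes from the 3 Mir450 genes. It is shown because identical sequence decides which of their reads can be assigned to 1 gene.
miR-450a-5p: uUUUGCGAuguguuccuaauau
miR-450b-5p: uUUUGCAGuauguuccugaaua
miR-450a-1-3p: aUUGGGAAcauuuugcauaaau
miR-450a-2-3p: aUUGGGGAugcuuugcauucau
miR-450b-3p: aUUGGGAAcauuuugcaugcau
Mir450-1 and Mir450-2 carry the same miR-450a-5p, and their genes share an identical stretch of 25 bases. miR-450b-5p differs from miR-450a-5p at 7 of 22 positions, among them G7A and A8G in the seed. On the other arm, miR-450a-1-3p and miR-450b-3p differ only by A19G and A20C and share a seed. The longest stretch that Mir450b shares with another miRNA gene was 19 bases. For Mir322, Mir503, Mir351 and Mir542 it was 13, 12, 13 and 11 bases.

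All members lie on the minus strand within 6353 bases (mm10). In the direction of transcription the order is Mir322 (chrX:53054255-53054349), Mir503 (chrX:53053984-53054054), Mir351 (chrX:53053255-53053353), Mir542 (chrX:53049403-53049487), Mir450-2 (chrX:53048299-53048367), Mir450-1 (chrX:53048154-53048244) and Mir450b (chrX:53047997-53048078). In GENCODE M21 no member overlaps a gene of another type, so none is annotated as exonic or intronic. The lincRNA gene Gm28730 lies on the same strand between Mir351 and Mir542, and the processed transcript C430049B03Rik lies 697 bases upstream of Mir322. The gap between genes was 200 bases from Mir322 to Mir503 and 630 bases from Mir503 to Mir351. It was 3767 bases from Mir351 to Mir542, 1035 bases from there to Mir450-2, and 54 and 75 bases between the Mir450 genes. The members thus form a group of 3 at the 5′ end and a group of 4 at the 3′ end.

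Reads counted on the strand of a listed gene numbered 3754895 for pup 1 and 5133949 for pup 2. Mir206, a miRNA of skeletal muscle, was the most abundant of the listed genes, and 9 of 10 striated muscle markers were listed, of which 8 had at least 10 counts in both libraries. They were led by Mir206, Mir133b and Mir499. Of 5 listed neural markers, 4 had 0 counts and none exceeded 2. The 7 epithelial markers, led by Mir203, Mir205 and Mir429, took 0.569% of counts from pup 1 but 0.0230% from pup 2, a log2 ratio of replicate 2 over replicate 1 between -5.42 and -3.71 for each gene. The other lists moved less, with 0 genes called at 2-fold. Striated muscle markers took 8.13% and 8.94%, and 9 of 9 were higher in replicate 2 (median log2 ratio 0.35). Reads that map to several places are outside these shares. Markers that share a mature miRNA with another gene, such as Mir1a-1 and Mir133a-1, are therefore uncertain. The same holds for the listed neural markers, so their low counts cannot show an absence of neural miRNAs. Fibroblast and smooth muscle markers, led by Mir143, Mir21a and Mir214, took 4.54% and 4.19%, and 4 of 6 were lower in replicate 2 (median -0.17), or 5 of 6 under scaling by library totals. Listed blood markers, led by Mir223, Mir451a and Mir144, took 0.0973% and 0.0673%, and 3 of 4 were lower (median -0.38). The blood marker Mir142 is not among the listed genes, so its reads are outside this share. Reads on its strand, opposite Mir142b, numbered 3201 for pup 1 and 3075 for pup 2, above the 1896 and 1721 counts of Mir223. The endothelial Mir126a took 4.08% and 3.66%, and the liver Mir122 0.0180% and 0.0185%. The part of these lists in the differences between pups given below was not tested. Fewer cells of a type and less RNA per cell cannot be told apart in whole muscle.

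The cluster took 4.79% ± 0.386 (SD, n = 2) of all gene counts. The share was 5.06% for pup 1 (95% Clopper-Pearson interval 5.04 to 5.08) and 4.51% for pup 2 (4.50 to 4.53). The intervals do not overlap, so the libraries differed by more than the counting error of independent reads. Intervals here cover that error only, and they are too narrow where several reads copy the same molecule. With 1 library from each pup, a difference between pups cannot be told apart from a difference between library preparations. Every one of the 7 members had at least 10 counts in both libraries, against 15.8% of all listed genes, and every count on their loci lay on the annotated strand.

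**Figure D1:**
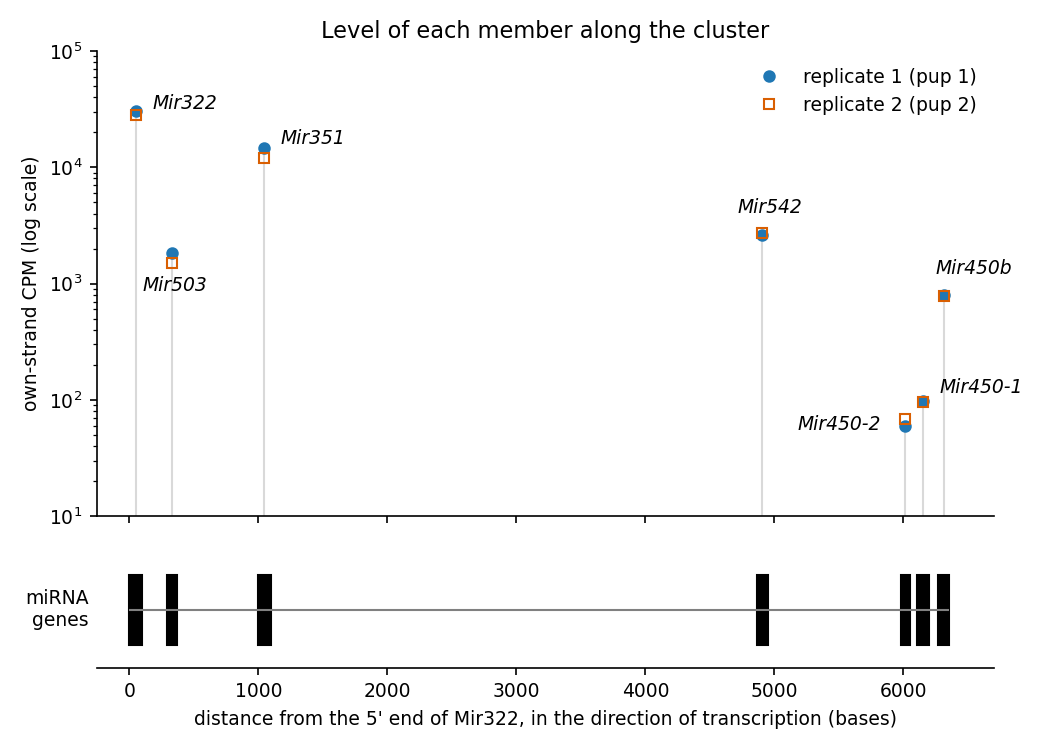
Own-strand CPM (log axis) of the 7 members in each pup, placed to scale by distance in bases from the 5′ end of Mir322, with the genes drawn as black boxes below. Mir322 and Mir351 stand at 12052 CPM or more in both pups, while Mir503, between them, reaches 1832 CPM at most, and Mir450-1 and Mir450-2 reach 97.2 CPM at most.

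Levels are in CPM, a gene's count scaled to a library total of 1000000 own-strand gene counts. The annotated genes are 69 to 99 bases long. Per kilobase of gene, the mean level was 307139 for Mir322, 135253 for Mir351, 31490 for Mir542, 23399 for Mir503, 9724 for Mir450b, 1064 for Mir450-1 and 937 for Mir450-2. This is the order that the CPM below also give, so the ratios of counts between members are given without length. The tables give 1 count per gene, so the arms of a hairpin are not separated.

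Mir322, the source of miR-322-5p, had 30431 CPM in replicate 1 and 27925 CPM in replicate 2, a mean of 29178 ± 1772 CPM (SD, n = 2). It ranked 13th of the 1973 listed genes by mean CPM. Mir503, whose miR-503-5p shares bases 2 to 7 with miR-322-5p and whose hairpin is the next one downstream, had 1832 and 1491 CPM, a mean of 1661 ± 241 CPM. The count of Mir322 was 16.6 times that of Mir503 in replicate 1 and 18.7 times in replicate 2. Both libraries thus held many more reads of the first hairpin than of its neighbour 200 bases away.

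Mir351, which has been linked to proliferation and survival of muscle progenitor cells, had 14728 and 12052 CPM, a mean of 13390 ± 1892 CPM. It was the second most abundant member, ranked 19th of all listed genes. Mir542, whose miR-542-3p is known to act on the apoptosis inhibitor survivin (Birc5), had 2638 and 2715 CPM, a mean of 2677 ± 54.8 CPM. Mir542 lay above Mir503 in both pups, by 1.44 and 1.82 times, although Mir503 belongs to the abundant 5′ group.

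The Mir450 genes were the lowest. Mir450b had 806 and 789 CPM, a mean of 797 ± 11.7 CPM, and ranked 100th. Mir450-1 had 97.2 and 96.4 CPM, a mean of 96.8 ± 0.558 CPM, from 365 and 495 counts. Mir450-2 had 60.2 and 69.1 CPM, a mean of 64.7 ± 6.34 CPM, from 226 and 355 counts. Mir450b, the member farthest from the 5′ end, was thus higher than both Mir450 genes before it, and it exceeded Mir450-2 by 13.4 times in replicate 1 and 11.4 times in replicate 2. The counts of Mir450-1 and Mir450-2 are uncertain, because a read of miR-450a-5p matches both genes and reads that map to several places were listed apart from the gene counts. Such reads numbered 2156563 in the library of pup 1 and 2971792 in that of pup 2, over all sequences. How many of them came from miR-450a-5p was not tested.

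The order from high to low was Mir322, Mir351, Mir542, Mir503, Mir450b, Mir450-1 and Mir450-2, and all 7 members kept their place in each library alone. The ranges of neighbours in this order did not overlap between members in any of the 6 pairs. The ratio of Mir450-1 over Mir450-2 was 1.62 and 1.39, near that of Mir542 over Mir503 given above, and which of these steps was narrower differed between the libraries. So it did for Mir503 over Mir450b, at 2.27 and 1.89, and Mir322 over Mir351, at 2.07 and 2.32. In both libraries the widest step was Mir450b over Mir450-1, at 8.29 and 8.18, followed by Mir351 over Mir542, at 5.58 and 4.44. With 2 libraries these ranges are a description, since no permutation test over 2 samples can reach 0.05. Mean levels spanned 8.82 on the log2 scale. The order did not follow position, since Mir503 was lower than Mir351, the gene after it. By reads assigned to 1 gene, Mir450-2 and Mir450-1 were also each lower than the gene after them. Reads of miR-450a-5p that match both genes are outside their counts. The places of Mir450-1 and Mir450-2, and the steps and the span that involve them, are therefore uncertain.

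**Figure D2:**
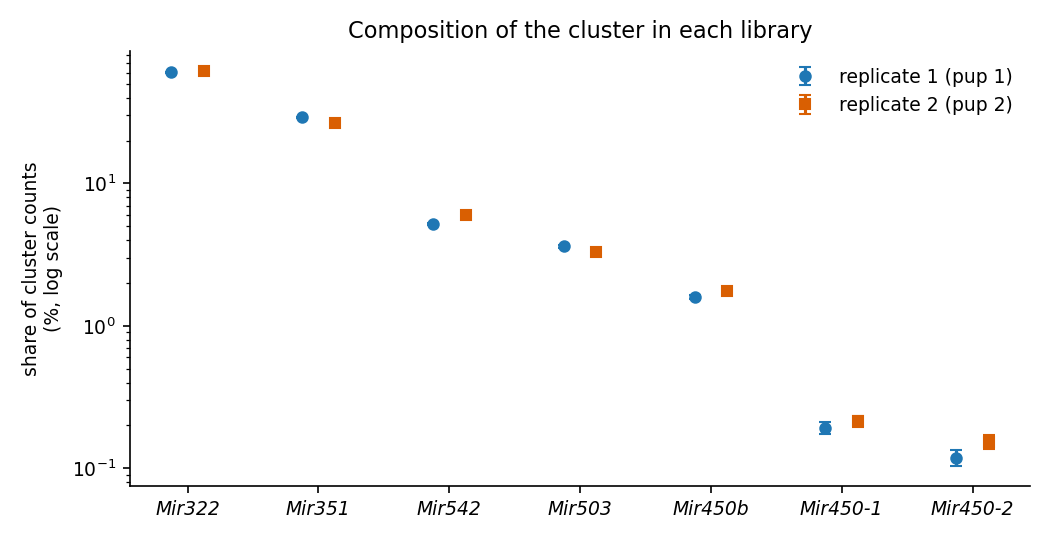
Share of the cluster's counts (percent, log axis) held by each member in each pup, with exact 95% Clopper-Pearson intervals as bars, most of them smaller than the points. Mir322 holds 60.2% and 61.9%, and the order is the same in both pups.

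Within the cluster, shares need no scaling between libraries. Of the cluster's counts, Mir322 held 60.2% (59.9 to 60.4) for pup 1 and 61.9% (61.7 to 62.1) for pup 2. Mir351 held 29.1% (28.9 to 29.3) and 26.7% (26.5 to 26.9). Thus the share of Mir322 was higher and that of Mir351 lower in replicate 2, both beyond counting error. Mir542 held 5.21% (5.11 to 5.31) and 6.02% (5.92 to 6.11), and Mir503 held 3.62% (3.54 to 3.71) and 3.30% (3.23 to 3.38). Mir450b held 1.59% (1.54 to 1.65) and 1.75% (1.70 to 1.80). For Mir450-1, at 0.192% (0.173 to 0.213) and 0.214% (0.195 to 0.233), the intervals overlapped, while for Mir450-2, at 0.119% (0.104 to 0.136) and 0.153% (0.138 to 0.170), they did not. The 3 genes at the 5′ end together held 92.9% of the cluster in replicate 1 and 91.9% in replicate 2. The 4 genes at the 3′ end held 7.12% and 8.13%, most of it from Mir542. All these shares are of reads assigned to 1 gene. Reads of miR-450a-5p that match both Mir450-1 and Mir450-2 are left out, and their effect on the shares was not tested.

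The difference between pups was small for every member. For each gene a binomial test, exact and two-sided, set its counts against library sizes scaled by trimmed mean of M values (TMM), with Benjamini-Hochberg adjustment over the 373 genes that had at least 10 counts in total. This test compares 2 libraries beyond counting error and not conditions. At an adjusted p under 0.05 and at least 2-fold, 0 of 7 members were called, against 5.09% of tested genes. By direction the members' count was 0 against 0.536% of genes higher in replicate 2 and 0 against 4.56% higher in replicate 1, and with DESeq2's size factors it was also 0. Without the fold minimum 5 of 7 members passed, as did 5 at an unadjusted p under 0.05, against 49.1% of tested genes at the adjusted threshold. Under scaling by library totals 3 of 7 passed, and the set changed: Mir542, Mir450-2 and Mir450b dropped out and Mir322 entered. The members' median log2 ratio of replicate 2 over replicate 1 was 0.10, and that of all tested genes was 0.0059. Scaling by library totals shifts every ratio down by 0.13 and turned the members' median to -0.030. The median size of the log2 ratio, sign left aside, was 0.16 for members and 0.32 for all tested genes.

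**Figure D3:**
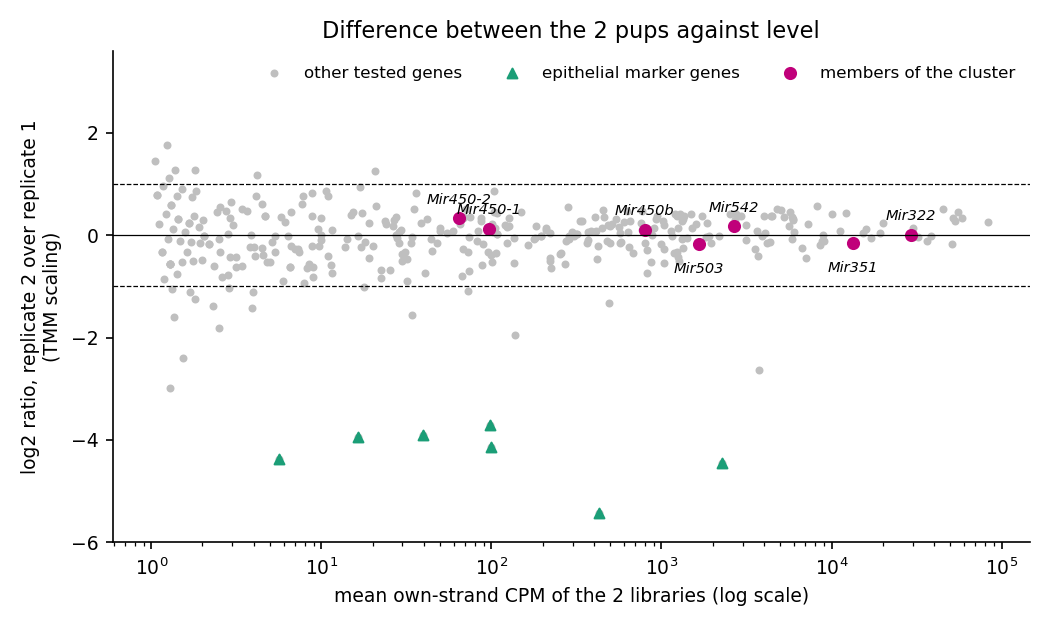
Log2 ratio of replicate 2 over replicate 1 (TMM scaling) against mean CPM (log axis) for the 373 tested genes, with members of the cluster as magenta circles and epithelial markers as green triangles. Dashed lines mark 2-fold, and the members lie between -0.17 and 0.33 while the 7 epithelial markers lie between -5.42 and -3.71.

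A change of scaling shifts every ratio by the same amount, so differences between members do not depend on it. The sign of a ratio and the set of members past the threshold do. With TMM, Mir322 had a log2 ratio of 0.0076 (95% interval -0.0036 to 0.019), with an adjusted p of 0.293 in the exact binomial test. Mir351 was lower in replicate 2 by 0.16 on the log2 scale, with a log2 ratio of -0.16 (-0.17 to -0.14, adjusted p = 1.39e-76, exact binomial test). Mir503 was lower by a like amount, with a log2 ratio of -0.17 (-0.21 to -0.12, adjusted p = 1.98e-11, exact binomial test). Mir542 was higher, at 0.17 (0.14 to 0.21, adjusted p = 2.20e-19, exact binomial test). Under scaling by totals all 3 genes of the 5′ group were lower in replicate 2 and past the threshold, with log2 ratios of -0.12 for Mir322 (adjusted p = 9.16e-103, exact binomial test), -0.29 for Mir351 and -0.30 for Mir503, while Mir542, at 0.042, was no longer past it (adjusted p = 0.0554, exact binomial test). Mir450-2 was at 0.33 (0.087 to 0.58, adjusted p = 0.0151, exact binomial test, and 0.188 under scaling by totals) and Mir450b at 0.10 (0.033 to 0.17, adjusted p = 0.00814, exact binomial test). The sign for Mir450b turns under scaling by totals. Mir450-1, at 0.12 (-0.078 to 0.32), was within counting error. The coefficient of variation of CPM over the 2 pups, scaled by library totals, was 0.577% to 14.5% for the members. A different measure, edgeR's common dispersion with TMM scaling, gave a biological coefficient of variation of 0.319, as a fraction. It pools 373 genes, the epithelial markers among them, so the 2 values are not directly comparable.

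The seed of miR-322-5p is the seed of the miR-15 and miR-16 family, which is known for lowering cyclins and other cell cycle proteins. Relatives are shown for comparison with miR-322-5p.
miR-15a-5p: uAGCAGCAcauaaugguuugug
miR-16-5p: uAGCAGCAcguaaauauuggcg
miR-195a-5p: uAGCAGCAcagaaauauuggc
In RefSeq 11 genes carry this seed, of which 10 were listed. Mir15a had 1250 ± 336 CPM (SD, n = 2), Mir16-1 871 ± 273, Mir195a 678 ± 157, Mir15b 571 ± 80.1 and Mir16-2 224 ± 82.6 CPM. Mir195b, Mir6342, Mir6353 and Mir6419 had 0 counts in both libraries, which allows up to 0.799 CPM in replicate 1 and 0.584 CPM in replicate 2. Mir322 exceeded Mir15a, the highest of the others, by 20.5 times in replicate 1 and 27.6 times in replicate 2. It held 87.7% (87.6 to 87.9) of the counts of listed genes with this seed in replicate 1 and 90.5% (90.3 to 90.6) in replicate 2. That share is of reads assigned to 1 gene. Both arms of each hairpin count towards it, so it is not the share of reads that carry this seed. Mir16-1 and Mir16-2 make the same miR-16-5p and share 23 identical bases, so reads of it that map to both were left out. Multimapping reads of the whole genome were 18.9 and 20.7 times the count of Mir322, and the part of miR-16-5p in them was not tested. No other RefSeq gene carries the seed of miR-503-5p.

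**Figure D4:**
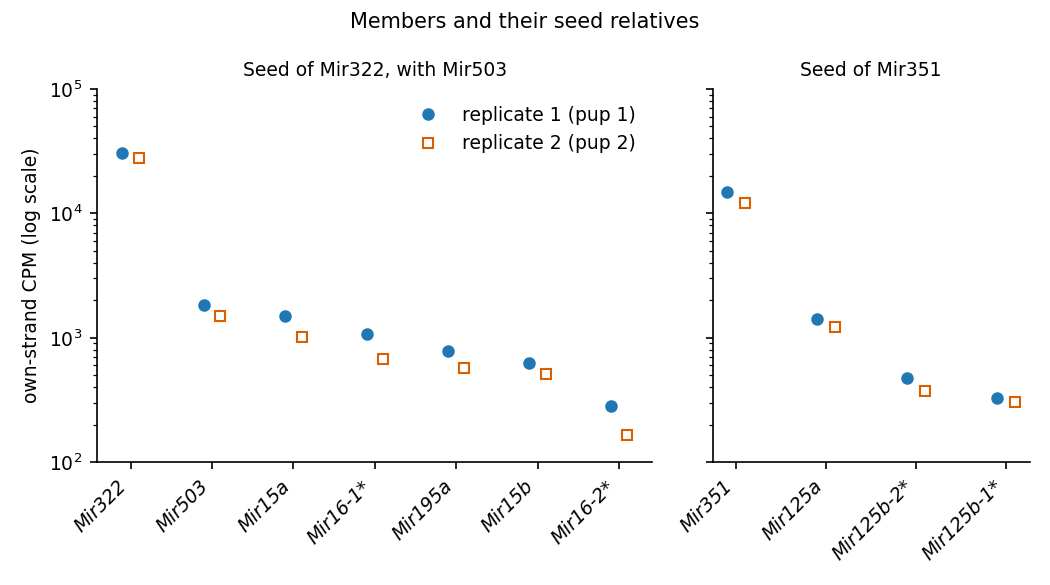
Own-strand CPM (log axis) in each pup for listed genes above 100 CPM that carry the seed of Mir322, with Mir503 (left), or of Mir351 (right). An asterisk marks genes that share at least 20 identical bases with another miRNA gene, and in each panel the member of the cluster stands highest.

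The seed of miR-351-5p is that of the miR-125 family, the mammalian relatives of the worm miRNA lin-4.
miR-125a-5p: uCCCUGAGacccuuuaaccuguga
miR-125b-5p: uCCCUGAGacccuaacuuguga
Beyond the first 8 bases the sequences part, and miR-351-5p matches miR-125a-5p at 10 of 24 positions. Of 6 RefSeq genes with this seed, all of them listed, Mir125a had 1317 ± 135 CPM, Mir125b-2 426 ± 72.9 CPM and Mir125b-1 318 ± 17.8 CPM. Mir6367 and Mir6394 had 0 counts. Mir351 exceeded Mir125a by 10.4 and 9.86 times. It held 86.9% (86.6 to 87.2) and 86.4% (86.1 to 86.6) of the counts of listed genes with this seed, both arms of each hairpin included. Here too the share is of reads assigned to 1 gene, since Mir125b-1 and Mir125b-2 share 24 identical bases. The only other gene with a seed of Mir542, Mir6966, had 1 and 5 counts. Mir6352, which shares the seed of miR-450b-3p, had 0.

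On the X chromosome 120 miRNA genes were listed, and the cluster held 68.8% of their counts in replicate 1 and 66.3% in replicate 2. Of the 113 others, 68 had 0 counts in both libraries and 9 had a mean of at least 1000 CPM. These were Mir532 (5279 ± 596 CPM), Mir652 (4052 ± 183), Mir98 (3123 ± 334), Mir188 (2642 ± 100.2), Mirlet7f-2 (1335 ± 243), Mir501 (1324 ± 95.3), Mir500 (1287 ± 173), Mir361 (1135 ± 29.0) and Mir676 (1019 ± 76.5). Mir322 and Mir351 thus stood above every other listed X-linked gene, and Mir542 stood beside Mir188.

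Among the listed genes, those nearest to a member were taken by mean own-strand CPM alone. Genes seen only through opposite-strand reads are outside this ranking. Of these, Mir376a, opposite Gm25252, had a mean of 22045 CPM, between Mir322 and Mir379 below. Mir409, opposite Gm24321, had a mean of 13824 CPM, between Mir351 and Mir22. Next above Mir322 was Mir143, a smooth muscle and fibroblast miRNA, at 30088 ± 137 CPM, and their ranges overlapped. Next below was Mir379, at 19962 ± 986 CPM, whose range did not overlap that of Mir322. Mir351 lay between Mir22 (15371 ± 658 CPM, no overlap) and Mir369 (12190 ± 1742 CPM, overlapping). Mir542 lay between Mir134 (2722 ± 208 CPM) and Mir188, and both ranges overlapped its own. Mir379, Mir369 and Mir134 belong to the imprinted Dlk1-Dio3 locus.

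Unequal levels within a cluster were also seen elsewhere. The highest member of the Mir322-Mir503 cluster exceeded the lowest by 506 times in replicate 1 and 404 times in replicate 2. In the Mir17-Mir92 cluster, which promotes proliferation, Mir17 (3681 ± 969 CPM) exceeded Mir19b-1 (4.05 ± 1.05 CPM) by 911 and 905 times. In the X-linked Mir106a-Mir363 cluster Mir106a (40.7 ± 17.0 CPM) exceeded Mir19b-2 (1.06 ± 0.391 CPM) by 39.6 and 36.8 times, from at most 5 counts of the latter. Mir93 (1029 ± 336 CPM) exceeded Mir25 (304 ± 22.7 CPM) by 3.96 and 2.75 times. Ratios were 50.7 and 49.8 for Mir23a (19315 ± 787 CPM) over Mir24-2 (384 ± 11.2 CPM) and 8.90 and 8.24 for Mir23b (15861 ± 83.5 CPM) over Mir27b (1854 ± 90.3 CPM). Mir24-1, the remaining gene of the latter cluster, is not among the listed genes and was left out, and reads on its strand, opposite Mir3074-1, had a mean of 40.9 CPM. For Mir143 over Mir145a (567 ± 22.5 CPM) they were 51.5 and 54.8, and for Mir214 (5831 ± 590 CPM) over Mir199a-2 (74.1 ± 29.6 CPM) 65.7 and 102. Mir221 (66.9 ± 29.6 CPM) exceeded Mir222 (29.9 ± 7.37 CPM) by 2.50 and 1.86 times. The lowest genes of 4 of these clusters make a mature miRNA that another gene also makes, as Mir450-1 and Mir450-2 do, so their counts and ratios are uncertain in the same way. These are Mir19b-1 and Mir19b-2, which share miR-19b-3p, Mir24-2, which shares miR-24-3p with Mir24-1, and Mir199a-2, which shares its mature miRNAs with Mir199a-1.

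Other miRNAs known from myoblasts give the setting. The list for differentiation held 8.91% and 9.64% of counts over 16 listed genes of 18, led by Mir206 at 83323 ± 5480 CPM, Mir214 and Mir27b. The list for proliferation held 1.09% and 0.808% over 12 genes, led by Mir17, Mir20a (1263 ± 383 CPM) and Mir18 (1149 ± 82.6 CPM). In neither list was a gene called between the pups at 2-fold, 0 of 15 and 0 of 12 tested, with median log2 ratios of 0.23 and -0.34. By reads assigned to single genes, Mir322 lay above every listed gene of both lists except Mir206. Multimapping reads were left out, so genes that share a mature miRNA with another gene are uncertain, among them Mir1a-1 (7.68 CPM) and Mir133a-1 (5.78 CPM). The shares of both lists are uncertain in the same way. Mir378a, a gene of the differentiation list that is not among the listed genes, had reads on the strand opposite Gm25301 at a mean of 57661 CPM, above Mir322.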

How the data were processed

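The authors deposited 1 table of raw counts for each library, with miRNA genes as rows, assembly mm10 and annotation M4, per the deposited descriptions. The sources used here name neither aligner nor counting program nor the 3 count columns. In every gene the first column equalled the sum of the other 2, which were read from their totals as own-strand and opposite-strand counts. Own-strand counts were used. The 4 lines of uncounted reads stayed out of library sizes: in replicates 1 and 2, respectively, multimapping reads were 30.2% and 29.9% of all reads, unmapped 9.66% and 10.1%, and reads without a gene 7.56% and 8.44%.

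Names and places came from GENCODE M21 (1894 of 1973 identifiers matched) and sequences from RefSeq (GRCm38.p6), where 916 listed genes had a mature sequence. TMM factors (1.05 and 0.955) and the dispersion came from edgeR 4.0.16 in R 4.3.3, and 0.5 was added to each count in ratios. Exact tests and intervals used scipy 1.17.1. The binomial test was also run on simulated counts that held counting error only. Such counts cannot show how the test behaves under the spread between pups. Identical stretches were searched on both strands of GENCODE miRNA transcripts.

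The members and lists were chosen with earlier results of these data known. Named were all members, seed relatives with at least 10 counts in both libraries, the genes next in level to the 3 highest members, the extremes of other clusters, X-linked genes of at least 1000 CPM and the 3 highest genes of the pathway and marker lists (for neural markers, all at 2 counts or fewer, none by name). Relatives with fewer counts, Mir24-1, Mir378a, Mir142, Mir409, Mir376a, Mir1a-1 and Mir133a-1 were named after their values were seen. Alternatives were other strand columns, denominators, scalings (DESeq2 1.42.0), pseudocounts, filters, seed lengths and single libraries.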

Additional observations from a re-analysis of the deposited data

Results flagged for a closer look

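Reads on the strand opposite Mir497b, where Mir497 is annotated, had a mean of 603 CPM. This signal lies outside the own-strand counts used above and exceeds what 0 counts would allow. Mir497 makes a miRNA with the seed of miR-322-5p. With these reads credited to it, Mir322 held 87.5% of the counts of genes with that seed, both arms included, against 89.1% without.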

How the results depend on the processing

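The order of the 7 members was the same in all 4 alternatives tried: length scaling, each library alone and both strands. Counting both strands could not change it, since no member had opposite-strand counts. Length scaling could not either, since neighbours in the order differ less in length than in counts. The cluster's share of 4.79% became 4.28% when counts of both strands, or all gene counts on either strand as the denominator, were used, 2.50% over all reads and 1.87% without Mir322. It ran from 4.51% to 5.06% with either replicate left out. Such a range is only the value of each library. The members' median log2 ratio of 0.10 turned to -0.030 under scaling by totals, where Mir322 had -0.12, Mir450-1 -0.012 and Mir450b -0.030, and 3 members passed the adjusted threshold (Mir322, Mir503 and Mir351). The median was 0.098 to 0.10 under the other settings. Of all tested genes 19 were called, 13 to 22 under other filters and scalings and 183 without the fold minimum. No member was called at 2-fold under any of these settings with the fold minimum. An alternative chosen after seeing the data left out relatives with an identical stretch of at least 20 bases. It gave 92.2% for Mir322 and 91.0% for Mir351 of the counts of listed genes with their seed. Leaving genes out can only raise these shares, so this setting cannot show the effect of the multimapping reads of those relatives. No paired analysis was possible because the labels give 1 group. Multimapping reads, left out of all counts, limit what can be said of Mir450-1 and Mir450-2.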
